A study of Mus musculus with 6 samples.

Results

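Accessible chromatin was examined at 5 genes of the macrophage lineage, Spi1, Csf1r, Cebpa, Cebpb and Irf8, by DNase-seq, a sequencing assay of the places where DNase I, added sparingly to nuclei, can reach and cleave the DNA. The members are the hotspots, the stretches where DNase I cut sites concentrate, that overlap 1 window of the mouse genome (build mm9) around each gene. The windows were chromosome 2 from 90870000 to 90970000 (Spi1), chromosome 7 from 35850000 to 35960000 (Cebpa), chromosome 2 from 167460000 to 167620000 (Cebpb), chromosome 8 from 123200000 to 123360000 (Irf8) and chromosome 18 from 61220000 to 61320000 (Csf1r). Overlapping hotspots of the 6 libraries were merged into regions, and 87 of the 59069 regions in the genome lay in the windows. They hold 422 of 253044 hotspots. All 6 libraries came from macrophages that were grown from C57BL/6J bone marrow and exposed to lipopolysaccharide (LPS), the bacterial cell wall component, for 8 h. In 2 libraries LPS was the sole agent, in 2 the cells were pre-treated with Dex, the glucocorticoid of the study, and in 2 Dex came late in the LPS treatment. How much Dex was given, and how long before or after LPS, is not in the labels. Nor is it stated that the 2 libraries of a group stem from different mice or dishes, and their spread, which the p-values rest on, may be technical. All groups received LPS, and cells without it were not analysed here. No mm9 annotation was used here, so regions are given by position, with no statement on promoter, exon or intron, and a window may hold elements of other genes. For the same reason genes that mark other cell types were not looked up, and the macrophage label was not checked. The densest regions of the Spi1 and Csf1r windows stood at percentiles of 91.4 to 99.3 of every list by z-score. They were taken as the densest of their windows, so these values do not test the label. By gene order in GRCm38.p6, the named protein-coding neighbours are Slc39a13 and Mybpc3 for Spi1, Cebpg and Slc7a10 for Cebpa, Tmem189 and Ptpn1 for Cebpb, Cox4i1 and Foxf1 for Irf8, and Pdgfrb and Hmgxb3 for Csf1r.

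Spi1 encodes PU.1, an ETS factor without which macrophages do not form, and which binds enhancers across the macrophage genome. Cebpa and Cebpb encode basic leucine zipper factors of the C/EBP family. The first directs early myeloid commitment, and the second is induced by inflammatory signals. Irf8 encodes an interferon regulatory factor that partners with PU.1 on composite DNA elements and favours monocytes over granulocytes. Csf1r encodes the receptor for the growth factor CSF-1, on which macrophages depend for survival, and it is a target of PU.1 and C/EBP. Glucocorticoids act through a nuclear receptor that binds DNA and alters accessibility at its own sites.

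The proximal promoters are shown to set the sequences of these genes side by side. RefSeq sequences (GRCm38.p6, plus strand, 250 bases up to the annotated start) matched 3 of the 5 genes, Cebpa at chr7:35119043-35119292, Cebpb at chr2:167688665-167688914 and Irf8 at chr8:120736108-120736357. Irf8 has a second annotated start, which is not printed. Capitals mark the TATA box letters TATAAA, a search added after the sequences were seen.
Cebpa: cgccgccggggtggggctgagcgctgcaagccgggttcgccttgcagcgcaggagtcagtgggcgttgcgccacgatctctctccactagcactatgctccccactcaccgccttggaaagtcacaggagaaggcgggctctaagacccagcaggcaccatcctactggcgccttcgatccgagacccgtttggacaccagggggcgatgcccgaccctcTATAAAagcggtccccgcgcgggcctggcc
Cebpb: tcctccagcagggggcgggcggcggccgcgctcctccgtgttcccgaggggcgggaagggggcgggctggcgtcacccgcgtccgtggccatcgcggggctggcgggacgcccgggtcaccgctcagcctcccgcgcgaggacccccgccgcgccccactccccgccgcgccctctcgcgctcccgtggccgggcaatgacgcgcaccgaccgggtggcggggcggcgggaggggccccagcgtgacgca
Irf8: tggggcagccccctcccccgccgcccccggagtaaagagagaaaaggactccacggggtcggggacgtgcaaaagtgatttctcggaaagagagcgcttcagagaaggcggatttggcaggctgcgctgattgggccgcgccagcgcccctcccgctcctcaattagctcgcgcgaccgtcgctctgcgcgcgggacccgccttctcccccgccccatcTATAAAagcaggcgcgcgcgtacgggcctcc
The letters TATAAA began 30 bases before the start of Cebpa and 31 before that of Irf8 and were not found in the Cebpb stretch, where 12.4% of 32851 promoter stretches of the same length hold them on either strand. The Cebpb stretch was the richest in CpG, with 41 CpG and a GC content of 81.6%, against 29 CpG and 67.2% for Irf8 and 22 CpG and 66.4% for Cebpa. The median over all promoter stretches was 6 CpG and 52.4%. Matches to 5 factor motifs were sought on both strands. They were GAGGAA for PU.1 (in 23.3% of all stretches), TTGCNNAA for C/EBP (9.56%), TGANTCA for AP-1 (6.75%), and the elements of the glucocorticoid receptor (0.387%) and of NF-kB (1.41%). None of these 5 motifs occurred in the 3 printed stretches. The positions of these stretches belong to another build than the hotspots and were not set against them.

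The 6 lists differ in length, from 29347 to 51834 hotspots, and both LPS lists were longer than all 4 Dex lists. Their lowest z-scores, the authors' measure of a hotspot's excess over its surroundings, ran from 7.98 to 11.6. The total number of tags is unknown. The density values below are the authors' maximum tag density of a hotspot. It moved in whole multiples (within 0.1 of a step) of a step between 0.334 and 0.443 that differed between libraries, and no source states how it was scaled. Percentiles rank a hotspot's z-score within its own list.

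The lineage windows were densely open in every library. They held 13.8 regions per 100 kb, against 2.29 over the span of the genome that the lists cover, and the rates ran from 10 per 100 kb at Spi1 to 16.9 at Cebpb. All 6 libraries listed 48 of the 87 regions (55.2%), where 42.5% of all regions were so shared. The shared regions were 8 of 10 at Spi1, 7 of 14 at Cebpa, 18 of 27 at Cebpb, 10 of 21 at Irf8 and 5 of 15 at Csf1r. The median of the mean maximum density was 15.3 in the windows and 9.49 over all regions, and the median width was 831 bp and 731 bp. A single library listed 9 of the 87. Because the windows were placed at genes chosen for their role in macrophages, these values are a description. Of the members, 2 crossed a window edge, 1 at Cebpa and 1 at Cebpb. Just outside, the nearest regions to those edges lay on chromosome 7 at 35840571 to 35842613 and on chromosome 2 at 167457041 to 167458112, with mean maximum densities of 47.5 and 76.1.

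**Figure D1:**
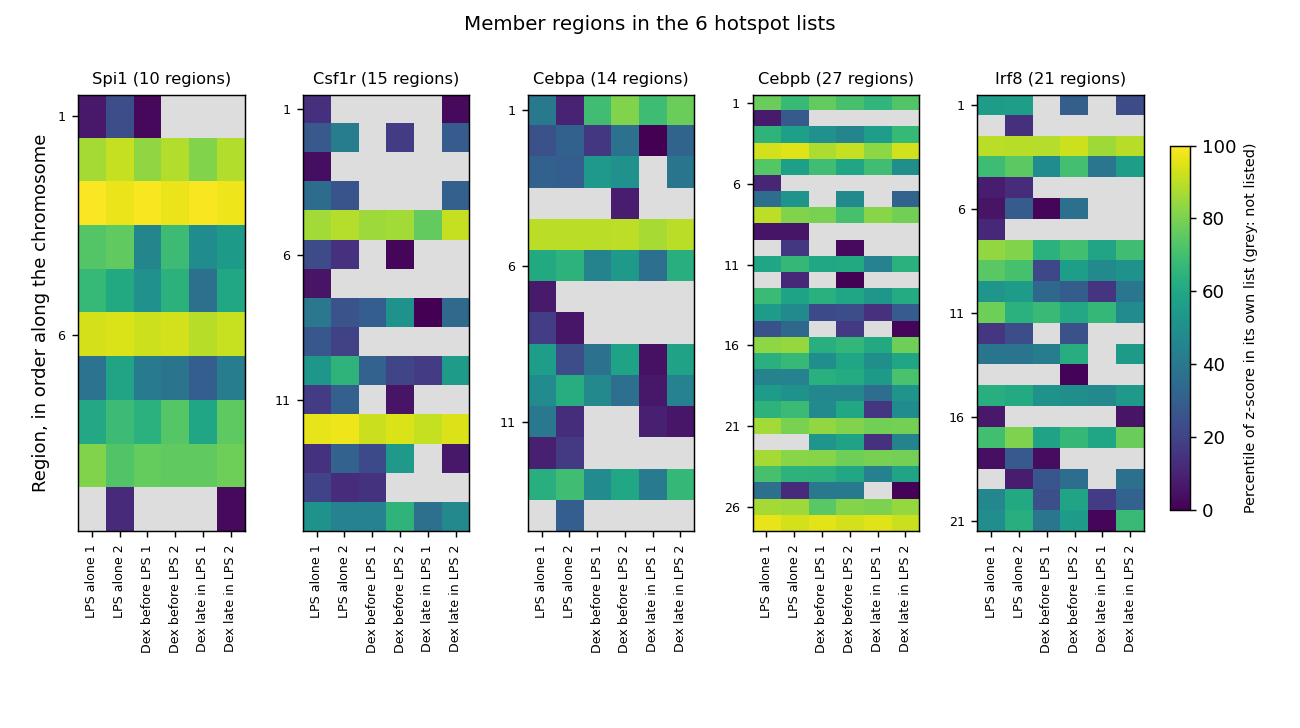
Within-list percentile of z-score (colour, grey where a library did not list the region) for the 87 regions, in order along the chromosome within each window (vertical axis), in the 6 libraries (horizontal axis). The bright rows, such as the densest Spi1 region at percentiles of 97.0 to 99.3, ran across all 6 libraries, while grey cells lay mostly in the rows of low percentile.

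The Spi1 window held the densest of the 87 regions, and it was open under all 3 treatments. This region, at 90909958 to 90911352, reached a maximum density of 123 and 68.7 with LPS alone, 126 and 81.6 with Dex before LPS, and 130 and 70.9 with Dex late, each pair in the order of replicates 1 and 2. The replicate 1 library was the higher in each group, and the groups overlapped throughout. Relative to LPS alone the log2 difference was 0.14 (SE 0.44) with Dex before LPS and 0.09 (SE 0.44) with Dex late, by limma with adjusted p = 0.992 and 0.999. The 95% interval of the first ran from -0.85 to 1.13, so with 2 libraries a group a change in either direction remained compatible with the values.

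The widest member, at 90921849 to 90927190, lay 13.9 kb from the densest one, centre to centre. Its maximum density was 71.6 and 63.9 with LPS alone, 64.2 and 61.9 with Dex before LPS, and 53.2 and 54.0 with Dex late. Both late-treated libraries lay below both LPS libraries (log2 difference -0.31, SE 0.25, limma adjusted p = 0.97). It was 1 unbroken hotspot of 5222 and 5341 bp in the LPS lists and 2 hotspots in each Dex list, which together covered 4132 to 5073 bp. The region at 90893682 to 90894706, 16.5 kb from the densest one on its other side, varied least of the 3 densest, between 50.4 and 61.8 over the 6 libraries. Of the other 7 Spi1 regions, 5 were listed by all libraries. The remaining 2 were narrow, at 499 and 338 bp, and weak, with mean percentiles of 10.99 and 7.36. The one at 90882669 to 90883168 was listed by both LPS libraries and replicate 1 of the pre-treated group, at z-scores of 8.66, 11.2 and 9.56, and by neither late-treated library. Over the 8 shared Spi1 regions the median log2 difference from LPS alone was 0.00 for Dex before LPS and -0.01 for Dex late, with 4 of 8 above 0 in each, and the sign of these medians changed with the scaling.

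At Cebpa the 2 densest regions had higher densities with Dex before LPS than with LPS alone in both replicates, without passing the test. The densest, at 35902885 to 35906159, had a maximum density of 36.5 and 28.5 with LPS alone, 50.6 and 46.3 with Dex before LPS, and 50.02 and 33.2 with Dex late. The pre-treated libraries lay above the LPS libraries, and the late-treated ones overlapped with them. The log2 difference was 0.59 (SE 0.30, limma adjusted p = 0.68) for Dex before LPS and 0.37 (SE 0.30, adjusted p = 0.96) for Dex late, so neither passed the test. Its covered length was 3034 to 3232 bp in all 6 lists.

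The region at 35849289 to 35850641, which crosses the Cebpa window's edge and lies 54.6 kb from the densest one, showed the largest difference among the members. Its maximum density was 12.7 and 6.60 with LPS alone, 21.0 and 30.0 with Dex before LPS, and 26.0 and 25.7 with Dex late. All 4 Dex libraries lay above both LPS libraries. In whole steps of density the maximum was 38 and 19 steps with LPS alone, while the 4 Dex libraries reached 51 to 79. Its z-score went from 14.1 and 9.28 with LPS alone to between 32.9 and 40.7 with Dex, its percentile from 40.3 and 9.46 to between 68.9 and 81.0, and its hotspot from 885 and 809 bp to between 1095 and 1321 bp. The log2 difference in maximum density was 1.45 (SE 0.31) for Dex before LPS, or 2.74-fold, and 1.53 (SE 0.31) for Dex late, or 2.88-fold. By limma over all shared regions the adjusted p was 0.16 and 0.19, which misses 0.05. With z-scores in place of densities the log2 differences were 1.78 and 1.795 and the adjusted p was 0.013 and 0.016. It passed with z-scores and with a replicate block, and under no other of the 13 alternatives. The difference in density was 0.99 and 1.07 without replicate 2 of the LPS group (adjusted p = 0.75 and 0.81) and 1.92 and 1.99 without replicate 1 of that group (adjusted p = 0.46 and 0.51).

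The remaining Cebpa regions were weaker. The third by density, at 35911843 to 35913287, stayed between 15.6 and 22.1, with all groups overlapping. Differences from LPS alone at the 7 shared Cebpa regions had a median of 0.35 for Dex before LPS, with 7 of 7 above 0, and 0.32 for Dex late, with 6 of 7 above 0. The median over all 25091 shared regions was 0.03 in both comparisons. None of the 7 passed the test, and in z-scores 4 of 7 were above 0 for Dex before LPS.

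The Cebpb window was the most crowded, with 27 regions. Its densest region, at 167601797 to 167603975, had a maximum density of 106 and 72.9 with LPS alone, 107 and 74.8 with Dex before LPS, and 103 and 62.0 with Dex late. The next, at 167481882 to 167483014 and 120 kb away, had 96.3 and 83.7, 88.5 and 76.7, and 81.2 and 91.2 in the same order. The third, at 167513926 to 167515579, had 65.2 and 34.0, 52.3 and 37.6, and 60.0 and 42.5. In all 3 regions the groups overlapped. At the densest and at the one at 167513926 the replicate 1 library was the higher in every group. The log2 differences from LPS alone at these 3 regions lay between -0.12 and 0.13, with limma adjusted p of 0.987 to 0.999.

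Less dense Cebpb regions separated the treatments in both directions, though none passed the test. Those in this paragraph were picked after their values were seen. The region at 167567881 to 167570081 had a maximum density of 20.7 and 16.7 with LPS alone, 32.9 and 28.5 with Dex before LPS, and 30.0 and 30.6 with Dex late. All 4 Dex libraries were above both LPS libraries, with log2 differences of 0.72 and 0.73 (SE 0.24 each, limma adjusted p = 0.38 and 0.48). The region at 167542035 to 167543663 lay the other way, at 55.2 and 56.9 with LPS alone, 37.5 and 38.0 with Dex before LPS, and 40.02 and 46.1 with Dex late. Here all 4 Dex libraries were below both LPS libraries, with log2 differences of -0.57 and -0.36 (SE 0.23 each, adjusted p = 0.53 and 0.91).

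The Cebpb window also held the single member that all 4 Dex libraries and neither LPS library listed, a class that makes up 0.389% of all regions. It lay at 167582647 to 167583475, between shared regions at 167577979 to 167580308 and 167584780 to 167587776. Its maximum density was 23.9 and 27.3 with Dex before LPS and 18.0 and 21.3 with Dex late, at z-scores of 21.1, 21.8, 13.6 and 16.4. The LPS lists held hotspots in the same window down to a maximum density of 12.0 and 10.4 and z-scores of 8.50 and 8.90. All 4 Dex libraries still listed it with lists of equal length, a common minimum z-score and merging of hotspots up to 500 bp apart. In the stronger 50% of each list 2 Dex libraries held it, and 3 had hotspots covering at least 50% of it. The LPS count of 0 could not rise in these settings. Stricter lists or cover only remove hotspots, and no other region lay within 500 bp. Over the 18 shared Cebpb regions the median log2 difference from LPS alone was 0.04 for Dex before LPS, which turned to -0.05 with quantile normalization, and 0.07 for Dex late.

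At Irf8 most shared regions had lower densities with Dex than with LPS alone, by amounts that did not pass the test, while the densest one did not. The densest region, at 123209058 to 123210708, had a maximum density of 50.8 and 37.5 with LPS alone, 62.6 and 49.0 with Dex before LPS, and 54.8 and 37.2 with Dex late, so the groups overlapped. The second, at 123283633 to 123284714, had 24.4 and 29.5, 19.4 and 22.4, and 21.6 and 28.8, with the pre-treated libraries below the LPS libraries (log2 difference -0.37, SE 0.23, limma adjusted p = 0.80). The third, at 123259723 to 123260927, had 33.8 and 16.3, 27.6 and 19.0, and 28.8 and 12.4. The replicate 1 library was the higher in each group there, by 1.03, 0.66 and 1.36 on the log2 scale.

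Of the other Irf8 regions, 2 are given that were picked after their values were seen. The one at 123243469 to 123244360 was the furthest below LPS alone with Dex before LPS, though not with Dex late. Its maximum density was 21.7 and 19.4 with LPS alone, 9.06 and 14.8 with Dex before LPS, and 16.0 and 15.5 with Dex late. All 4 Dex libraries were below both LPS libraries, with log2 differences of -0.83 and -0.35 (SE 0.25 each, limma adjusted p = 0.32 and 0.93). Its neighbour at 123238901 to 123240628 had 27.8 and 25.7, 19.8 and 20.5, and 19.6 and 18.2, again with no overlap between Dex and LPS (-0.41 and -0.47, SE 0.21 each, adjusted p = 0.70 and 0.73). Over the 10 shared Irf8 regions the median log2 difference was -0.19 for Dex before LPS, with 1 of 10 above 0, and -0.27 for Dex late, with 2 of 10 above 0. The medians kept this sign under each scaling tried. In z-scores they were nearer 0, at -0.10 for Dex before LPS (2 of 10 above 0) and -0.12 for Dex late (4 of 10). None of the 10 regions passed the test in either comparison.

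Csf1r, the receptor gene, had few shared regions and 1 broad strong one. That region, at 61264906 to 61268931, had a maximum density of 75.9 and 69.1 with LPS alone, 70.4 and 58.8 with Dex before LPS, and 60.8 and 61.1 with Dex late. The late-treated libraries were below the LPS libraries and the pre-treated ones overlapped with them, with log2 differences of -0.22 (SE 0.26, limma adjusted p = 0.999) and -0.17 (SE 0.26, adjusted p = 0.98). It covered 3494 to 4014 bp in all 6 lists. The second region, at 61233886 to 61234892 and 32.5 kb away, varied between 29.9 and 40.8, with 32.4 and 29.9 under LPS alone. The third, at 61250086 to 61250740, ranged from 10.0 in replicate 1 of the late-treated group to 23.2 in replicate 2 of the pre-treated group, and it was the member furthest apart between the Dex groups. The log2 difference of the late-treated from the pre-treated group was -0.61 there (SE 0.26), with a limma adjusted p of 1.0. In z-scores this difference was -0.30. The hotspot with the density of 10.0 was near the bottom of its list, at percentile 0.30. The other 12 Csf1r regions had mean maximum densities of at most 13.4. Over the 5 shared Csf1r regions the median log2 difference from LPS alone was 0.17 for Dex before LPS and 0.13 for Dex late, with 3 of 5 above 0 in each.

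**Figure D2:**
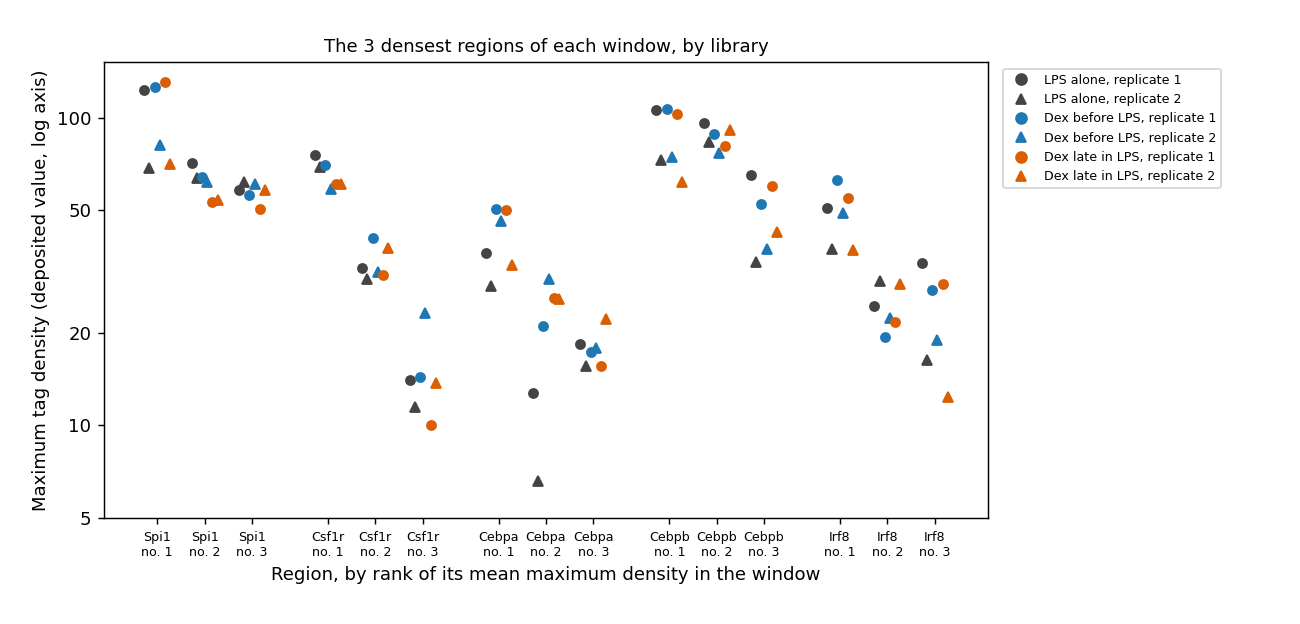
Maximum tag density (deposited value, log axis) of the 3 densest regions of each window, with 1 point per library, colour for the treatment and shape for the replicate number. At the densest Spi1 region the replicate 1 libraries (123 to 130) sat above the replicate 2 libraries (68.7 to 81.6) in all groups, while at the second Cebpa region both LPS points (12.7 and 6.60) sat below all Dex points.

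The comparison of Dex before LPS with LPS alone asks how these loci look when the steroid is present ahead of the stimulus. Of the 48 shared members, 25 were above 0 and 23 were not, between -0.83 at Irf8 and 1.45 at Cebpa, with a median of 0.02 on the log2 scale. By limma, 0 of 48 passed an adjusted p of 0.05 and 4 had an unadjusted p under 0.05. Of all 25091 shared regions 0.0837% passed and 8.58% had an unadjusted p under 0.05. The regions that passed differed by at least 1.54 on the log2 scale, and no smaller difference passed anywhere in the genome, so a miss at a member does not show that it was unchanged. The groups did not overlap at 17 of the 48, with the pre-treated libraries above at 7 and below at 10, and the same held for 35.8% of all shared regions. Standard errors of the members' differences ran from 0.20 to 0.47.

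The comparison of Dex late with LPS alone asks the same where the stimulus preceded the steroid. The median was 0.07, the range -0.51 to 1.53, and 26 of 48 members were above 0. By limma 0 of 48 passed and 4 had an unadjusted p under 0.05, against 0.0797% and 7.01% of all shared regions. The regions that passed differed by at least 1.55. The groups did not overlap at 23 of 48 members, 12 above and 11 below, against 33.5% of all shared regions. Both comparisons use the same 2 LPS libraries. Their values at a region are thus not independent.

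**Figure D3:**
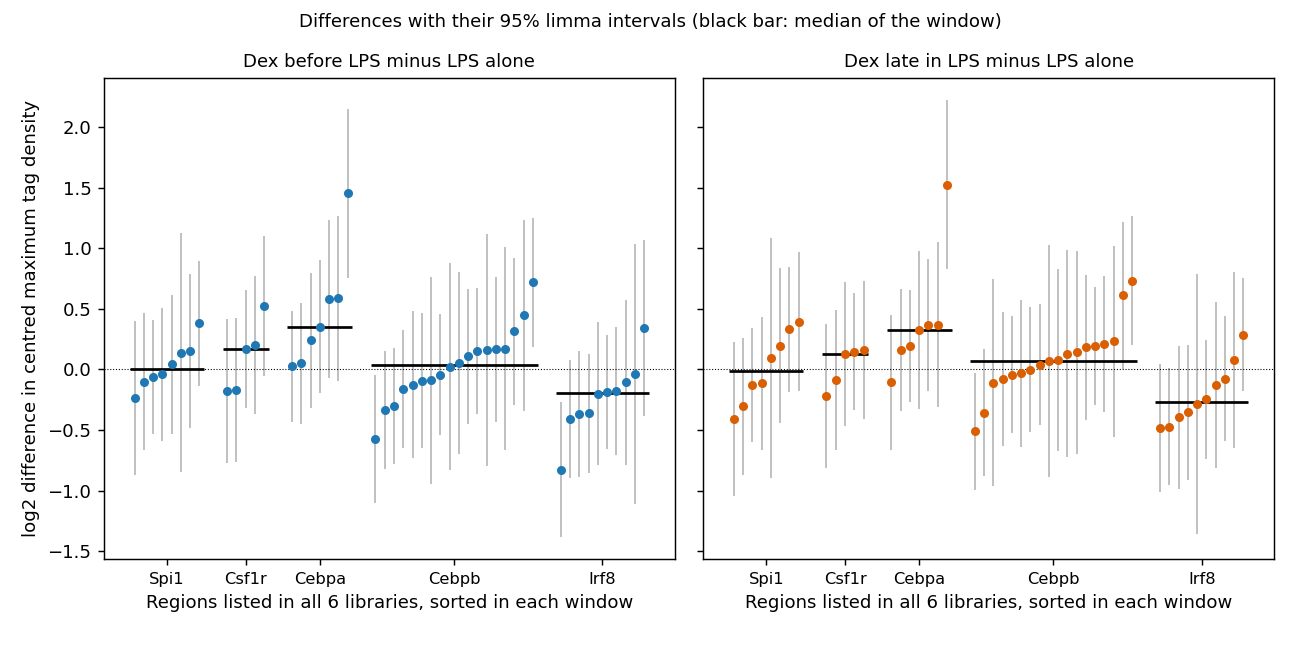
Log2 difference in centred maximum tag density from LPS alone for the 48 shared regions, sorted within each window, with 95% limma intervals (grey) and the window's median (black bar), for Dex before LPS (left) and Dex late (right). The Irf8 medians lie at -0.19 and -0.27 and the Cebpa medians at 0.35 and 0.32, and the point furthest from 0 is the Cebpa region at 1.45 and 1.53.

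Late-treated and pre-treated libraries were also compared directly. These groups differ in when Dex was given, and may also differ in its dose and length of exposure, which the labels do not give. The median of the late-treated minus pre-treated differences was -0.03, between -0.61 at Csf1r and 0.47 at Irf8, with 22 of 48 above 0. By limma 0 of 48 passed, 2 had an unadjusted p under 0.05, against 0.0% and 3.11% of all shared regions. Groups did not overlap at 17 of 48 members, 9 with the late-treated libraries above and 8 below, against 26.7% of all shared regions. The 2 members under 0.05, picked for that, were the third Csf1r region above and the Irf8 region at 123267211 to 123268183, which was at 14.8 and 13.7 with Dex before LPS and 19.2 and 19.5 with Dex late (log2 difference 0.47, SE 0.21, adjusted p = 1.0).

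Fewer member regions were listed with Dex than with LPS alone, in step with the shorter Dex lists. Of the 87 regions the LPS libraries listed 78 and 77, those pre-treated with Dex 58 and 66, and those given Dex late 50 and 63. The means were 77.5 ± 0.71, 62.0 ± 5.66 and 56.5 ± 9.19 (SD, n = 2 each). The exact two-sided permutation p was 0.333 for either Dex group against LPS alone, the smallest that 2 libraries against 2 allow, and 0.667 between the Dex groups. Adjusted over the family of 6 comparisons of number and covered length, these were 0.5 and 0.667. As a share of each library's own regions the windows held 0.168% and 0.153% with LPS alone, 0.178% and 0.154% with Dex before LPS, and 0.182% and 0.149% with Dex late. With lists of equal length the LPS libraries listed 49 and 46 member regions, the pre-treated ones 54 and 53, and the late-treated ones 50 and 49, so the difference turned to 6.0 and 2.0 regions more with Dex. When each list began at a z-score of 11.6, the pre-treated and LPS means were equal.

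By number of regions, the gap between LPS alone and Dex was smallest at Spi1 and widest at Csf1r. The LPS libraries listed 9 and 10 Spi1 regions and the 4 Dex libraries 8 or 9. At Csf1r the LPS libraries listed 15 and 12, the pre-treated ones 7 and 9, and the late-treated ones 5 and 9. With lists of equal length each library listed 4 to 6 Csf1r regions. The covered length in all windows was 75782 and 78903 bp with LPS alone, 59601 and 70635 bp with Dex before LPS, and 48722 and 65503 bp with Dex late (exact permutation p = 0.333 against LPS alone for each). With lists of equal length the mean difference from LPS alone went from -12224.5 to -1536.5 bp for Dex before LPS (exact permutation p = 1.0) and from -20230 to -8389.5 bp for Dex late (p = 0.333).

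**Figure D4:**
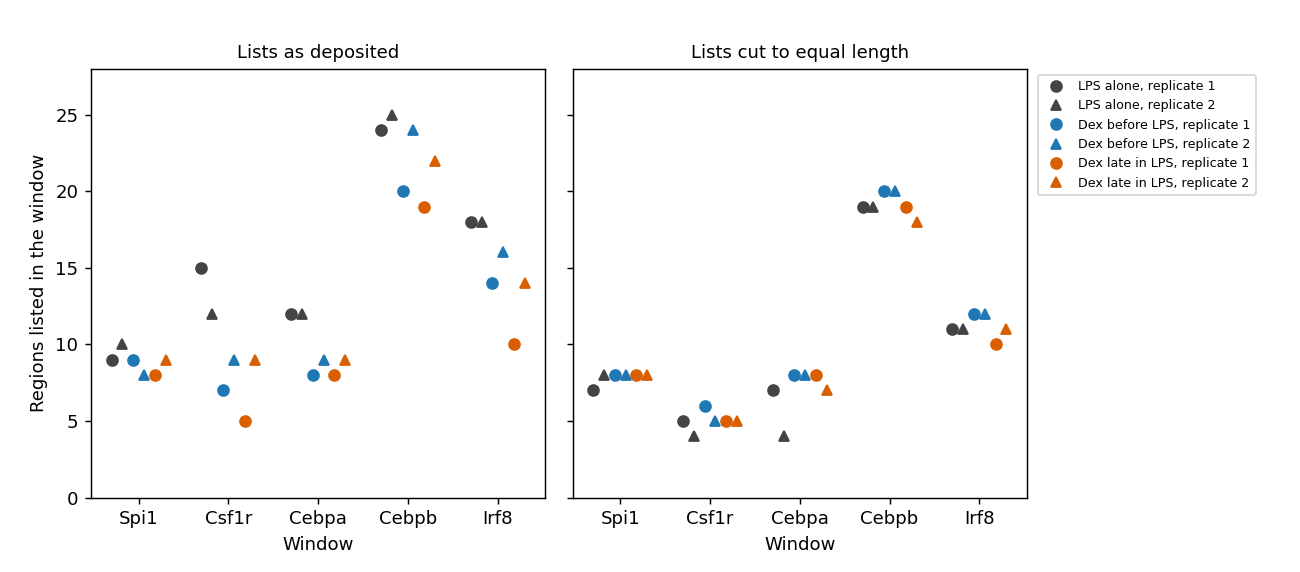
Number of regions that each library listed in each window, for the deposited lists (left) and for lists holding as many hotspots as the shortest one (right). On the left both LPS libraries lie above all Dex libraries at Csf1r, Cebpa and Irf8, and on the right each Csf1r value lies between 4 and 6.

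Members exclusive to LPS alone ranked low by z-score in the LPS lists, and which group had more exclusive members depended on the length of the lists. Both LPS libraries and neither pre-treated library listed 8 of the 87 regions, where 8.48% of all regions were of this kind, and 13 of the 87 in the comparison with the late-treated group, where it was 9.22%. In the other direction there was 1 in each comparison, the Cebpb region above, against 0.957% and 0.547% of all regions. With lists of equal length the comparison with the pre-treated group turned, to 7 regions exclusive to it and 1 to LPS alone, and that with the late-treated group came to 1 and 1. In the stronger 50% of each list they were 4 and 4, and 2 and 3, and from a common minimum z-score 2 and 0, and 1 and 0. LPS-only regions, in both LPS and no Dex library, were 6 of 87 against 5.18%. They were 2 at Cebpa, 2 at Cebpb, 1 at Irf8 and 1 at Csf1r. The highest mean percentile among them was 23.4, at the Csf1r region 61250788 to 61251390, with maximum densities of 9.70 and 9.03. The others were at 167466842 to 167467416 (17.7) and 167516002 to 167516477 (5.67) at Cebpb, 35952005 to 35952455 (12.9) and 35924774 to 35925243 (12.1) at Cebpa, and 123223713 to 123224103 (10.3) at Irf8. The Cebpb ones had mean maximum densities of 16.4 and 12.8, above the median of 9.49 over all regions. Within the Cebpb window they were low, below its median of 24.9. Between the Dex groups, 1 region was exclusive to the pre-treated libraries, at 123225800 to 123226407 of Irf8 (1.53% of all regions), and 1 to the late-treated ones, at 35948522 to 35949152 of Cebpa (0.35%). Both LPS libraries listed both of these. The other exclusive members of highest percentile were 61231616 to 61232339 and 61260904 to 61261417 at Csf1r (mean percentiles 30.7 and 17.9) and 123260992 to 123261569 and 123287178 to 123287640 at Irf8 (21.4 and 11.8). Each was in both LPS lists and 1 Dex list.

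The windows also differed in how z-score related to density. At Cebpb the median ratio of z-score to maximum density was between 0.782 and 0.866 in the 6 libraries, while over all regions it was 1.47 to 1.68. The ratio ran from 1.06 to 1.30 at Spi1, 1.12 to 1.47 at Csf1r, 1.18 to 1.38 at Irf8 and 1.24 to 1.47 at Cebpa. In every library the Cebpb value was the lowest of the 5. In replicate 1 of the LPS group the densest Cebpb region had a density of 106 and a z-score of 114, and the densest Csf1r region 75.9 and 108. Single regions departed from the medians, as at 167584780 to 167587776, where the same library had a density of 55.5 and a z-score of 55.1.

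**Figure D5:**
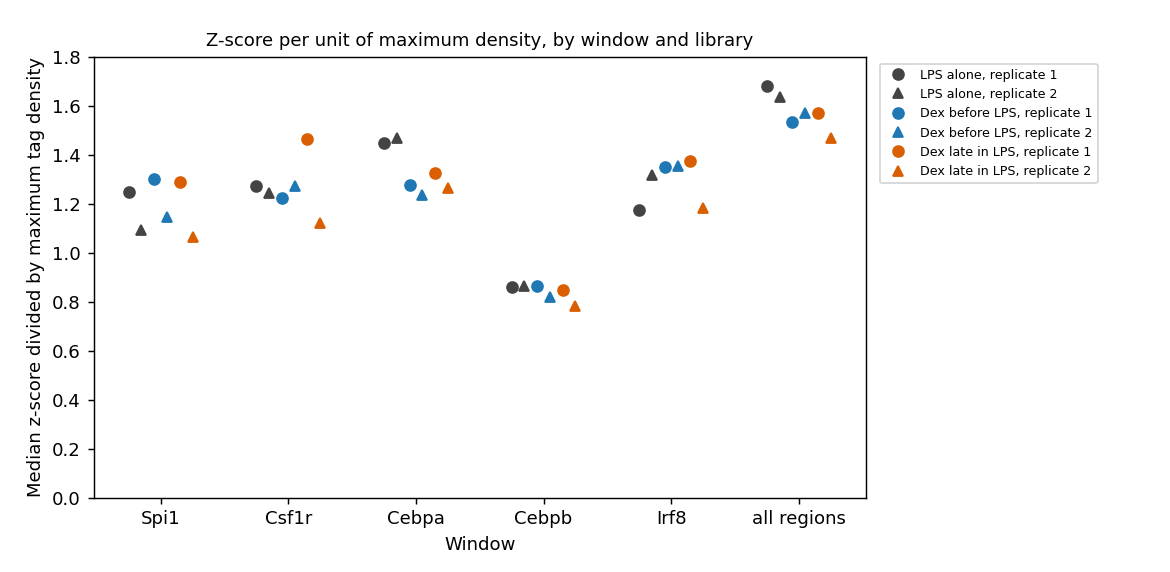
Median ratio of z-score to maximum tag density over the regions a library listed in each window and over all its regions, with 1 point per library. The Cebpb points lie at 0.782 to 0.866, below those of the other windows (1.06 to 1.47) and of all regions (1.47 to 1.68).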

How the data were processed

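DNase-seq hotspot lists of 6 libraries were used, 1 list per library, with reads of 51 bp per the labels' protocols. The submitters' processing notes name mm9 and CASAVA, with no version. The sources used here name no aligner, hotspot caller or threshold, and do not say whether positions count from 0 or 1. The deposited signal is the maximum tag density of each hotspot, the deposited score is its z-score and the deposited p-value was not used, all per the file headers. Total tag numbers are unknown, so no counting interval is given.

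Hotspots overlapping by at least 1 bp were merged into regions, and a region takes the highest density and z-score of a library's hotspots in it. The windows were compared in 3 ways. For the 25091 regions listed in all 6 libraries, log2 maximum density was centred on each library's median and fitted with limma 3.58.1 in R 4.3.3 (3 groups of 2, mean trend), with Benjamini-Hochberg adjustment over all regions and a threshold of 0.05. Numbers of listed regions and covered length went into two-sided exact permutation tests. Exclusive regions were counted beside their share of all regions. The limma step was tested on simulated data. Centring makes each difference relative to the median shared region, and regions that some library did not list are outside the limma test.

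In each window the 3 densest regions, every called region and up to 3 exclusive regions of highest percentile were named, and others are marked as picked later. The members and lists were chosen with earlier results of these data known. Alternatives covered scaling, measure, filter, merging, list length, overlap, replicate block and each library left out.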

Additional observations from a re-analysis of the deposited data

How the results depend on the processing

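Of the values that answer a comparison, 119 were counted as kept, 17 moved and 5 changed sign or reached 0. The cause was not tested. A difference in listed regions or covered length was kept if its sign held. A number of called or exclusive members was kept if its sum over both directions stayed within 1.5 times, so its split could turn. With lists of equal length, exclusive members went from 1 for Dex before LPS and 8 for LPS alone to 7 and 1. Some of the 119 were fixed in advance, such as differences in listed regions when a library outside the comparison was left out. Among the 119, differences in listed regions and covered length still shrank, for Dex late to -2.5 regions from a common minimum z-score and for Dex before LPS to -1536.5 bp with lists of equal length. By limma the number of members called was 0 in all 3 comparisons under quantile normalization, no centring, percentile rank, the denser part of the regions, wider merging and each library left out. With z-scores it was 1 for Dex before LPS and 1 for Dex late, the Cebpa region at 35849289. Among all regions the calls moved from 21 and 20 to 100 and 81 with quantile normalization, 87 and 86 with z-scores, 0 and 0 with percentile ranks and 3 and 8 in the denser part, and ran from 0 to 31 and from 0 to 10 with a library left out. Leaving out a library leaves 1 sample in its group, assumed to vary like the others.

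With the replicate number as a block, 5 members were called for Dex before LPS and 3 for Dex late, and 1662, 1134 and 40 among all regions. The Cebpa region at 35849289 and the Cebpb region at 167567881 were called in both, the Cebpa region at 35902885, the Cebpb region at 167542035 and the Irf8 region at 123243469 for Dex before LPS, and the Cebpb region at 167474565 for Dex late. Differences between replicate 1 and replicate 2 within a group correlated between groups at 0.54 to 0.60 across shared regions, which are not independent. The labels do not state a shared batch or day for a number.

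The difference in listed regions became 6.0 (Dex before LPS) and 2.0 (Dex late) with lists of equal length and 0.0 (Dex before LPS) from a common minimum z-score. Between the Dex groups it ran from -12.0 to 1.0 with a library left out, and the covered length from -16396 to 385 bp, with the sign turned without replicate 1 of the late-treated group. Exclusive members summed over both directions, 9 and 14 against LPS alone and 2 between the Dex groups, became 2 (equal length, Dex late), 5 (stronger 50%, Dex late), 2 and 1 (common z-score) and 4 (cover of 50%, between Dex groups), and ran from 9 to 17, 14 to 23 and 2 to 9 with a library left out. The Cebpb region at 167576816 turned from -0.51 to 0.070 for Dex late when hotspots up to 500 bp apart were merged, which joins it to the next region. Groups of 2 libraries limit all of these values.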

Other observations

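The replicate number moved with density at many members. The replicate 1 library was the higher in all 3 groups at 21 of the 48 shared members (43.8%) and the replicate 2 library at 6 (12.5%). Over all shared regions the shares were 32.5% and 19.9%. The Cebpb window held 12 of the 21, the Spi1 and Irf8 windows 3 and 4, and Cebpa and Csf1r 1 each. At the densest Spi1 region the replicate 1 libraries were higher by 0.82, 0.75 and 1.03 on the log2 scale with LPS alone, Dex before LPS and Dex late. At the third Irf8 region the differences were 1.03, 0.66 and 1.36, and at the Cebpb region at 167486900 to 167487704 they were 0.69, 0.90 and 1.05. These regions are among the members with the largest differences of this kind, and the Cebpb one was picked after its values were seen. The differences, each between single libraries, exceed the treatment differences between group means at the same regions. The largest of the latter was -0.28 at the third Irf8 region, 0.16 at the Cebpb region and 0.14 at the Spi1 region. This did not hold at every member. At the Cebpa region at 35849289 the treatment differences from LPS alone were 1.45 and 1.53, and the replicate differences 0.92, -0.39 and 0.16. What differs between the replicate numbers is not given in the labels and was not tested.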
